A study of Mus musculus with 9 samples.

Results

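The genes described here are 10 genes of antigen presentation by the mouse major histocompatibility complex (MHC, called H2 in the mouse): the class I heavy chain genes H2-K1 and H2-D1, the class II chain genes H2-Aa, H2-Ab1, H2-Eb1 and H2-Ea, and their partners B2m, Cd74, Tap1 and Tap2. They were chosen by name, and every probe set that the platform annotation assigned to exactly 1 of them was taken. This gave 32 probe sets of the 45037 tested, and 10 genes of the 18193 with a probe set of their own. Another 3 probe sets were annotated to a member together with another gene and are given apart.

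The samples were brain hemispheres, without the cerebellum, of untreated adult male mice of 3 inbred strains, B6By.C.132.54, BALB/cJ and C57BL/6ByJ, aged 11 ± 1 weeks. Left and right hemispheres were collected in turn, and each array held RNA pooled from 10 hemispheres. There were 3 arrays per strain from 30 mice, and 9 arrays from 90 mice in all. Of B6By.C.132.54 the labels give the strain name and no genotype at any locus. Affymetrix Mouse Genome 430 2.0 arrays, on which short probes are grouped into probe sets, measured RNA as probe set intensity. Values below are log2 of the deposited intensity. Because each array is a pool, all errors and p-values measure the spread between pools and not between mice. The number of arrays limits the precision.

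Class I molecules are heavy chains, paired with beta-2 microglobulin, that show peptides from inside the cell to CD8 T cells. Tap1 and Tap2 pump those peptides into the endoplasmic reticulum. Class II molecules are pairs of an alpha and a beta chain that show peptides from taken-up protein to CD4 T cells, with Cd74, the invariant chain, holding their groove until they reach the loading compartment. In healthy brain, class I transcripts are found in endothelium, microglia and some neurons, whereas class II is mostly a product of border macrophages and activated microglia. The heavy chain and class II genes are among the most polymorphic of the genome. C57BL/6 strains carry the haplotype named b and BALB/c the haplotype named d. The d haplotype has a further class I gene, H2-L, close in sequence to H2-D, and the b haplotype has a defect that stops transcription of H2-Ea. B2m and the Tap genes vary far less between strains, although C57BL/6 and BALB/c mice carry different alleles of B2m.

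The regulatory sequence in front of the only members called between strains, H2-D1 and B2m, is given here for the C57BL/6J reference genome, as RefSeq gives it for build GRCm38.p6. Each line is the 250 bases before the transcription start, 5′ to 3′ on the strand of the gene, and capitals mark matches to the motifs searched.
H2-D1 (chr17:35262844-35263093, plus strand): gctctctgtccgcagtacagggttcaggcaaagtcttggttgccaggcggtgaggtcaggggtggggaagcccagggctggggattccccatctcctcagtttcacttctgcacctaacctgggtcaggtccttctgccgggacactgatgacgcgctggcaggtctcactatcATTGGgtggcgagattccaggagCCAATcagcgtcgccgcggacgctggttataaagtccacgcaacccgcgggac
B2m (chr2:122147437-122147686, plus strand): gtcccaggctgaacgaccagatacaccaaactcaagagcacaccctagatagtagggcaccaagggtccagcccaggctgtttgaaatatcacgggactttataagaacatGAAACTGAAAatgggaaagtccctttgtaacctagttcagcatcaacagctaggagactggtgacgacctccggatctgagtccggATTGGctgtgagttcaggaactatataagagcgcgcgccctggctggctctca
The motifs, searched on both strands, were CCAAT (bound by NF-Y), GAAA repeated after any 2 bases (a core of interferon response elements) and CCNAGNNAC (the start of the X box, bound by the RFX complex). The H2-D1 window held 2 matches to CCAAT, 1 on each strand. The B2m window held 1 match to CCAAT and 1 to the GAAA repeat, and no printed matches overlap. Of the 32851 promoter windows of that length in RefSeq, 33.8% held CCAAT, 2.98% held the GAAA repeat and 14.5% held CCNAGNNAC. RefSeq windows were at hand for 6 of the 10 genes. Those of H2-K1, Tap1, H2-Aa and H2-Eb1 also held CCAAT at least once, and those of Tap1 and H2-Aa held CCNAGNNAC once each. A match describes the letters of the reference and no binding. Only these exact patterns were searched, so a window without a match can still hold a variant form of such an element. The BALB/cJ and B6By.C.132.54 sequences of these windows were not analysed here.

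BALB/cJ differed from both other strains in H2-D1, which was higher there in 3 of 9 probe sets, and in B2m, which was lower there in 1 of 2. No other member passed the test in any strain pair. A linear model of all 9 arrays with limma, adjusted by the Benjamini-Hochberg method over all probe sets at a threshold of 0.05, called 4 of the 32 member probe sets between BALB/cJ and C57BL/6ByJ; 7 members had an unadjusted p under 0.05, against 7.58% of all probe sets. Over all probe sets, 644 or 1.43% were called in that comparison. Of the 4 members called, 3 were H2-D1 probe sets higher in BALB/cJ, where 0.508% of all probe sets were called higher. The remaining member, of B2m, was lower in BALB/cJ, where 0.921% of all were called lower. Between B6By.C.132.54 and BALB/cJ the same 4 probe sets were called in the opposite direction, against 1.28% of all probe sets called. The 3 of H2-D1 were lower in B6By.C.132.54 (0.564% of all) and that of B2m was higher (0.713% of all), and the same 4 had an unadjusted p under 0.05 (7.5% of all). That comparison shares its BALB/cJ arrays with the one above. Between B6By.C.132.54 and C57BL/6ByJ limma called 0 members, and 0 members had an unadjusted p under 0.05. Over all probe sets 0.0% were called in that pair and 3.89% had an unadjusted p under 0.05.

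**Figure D1:**
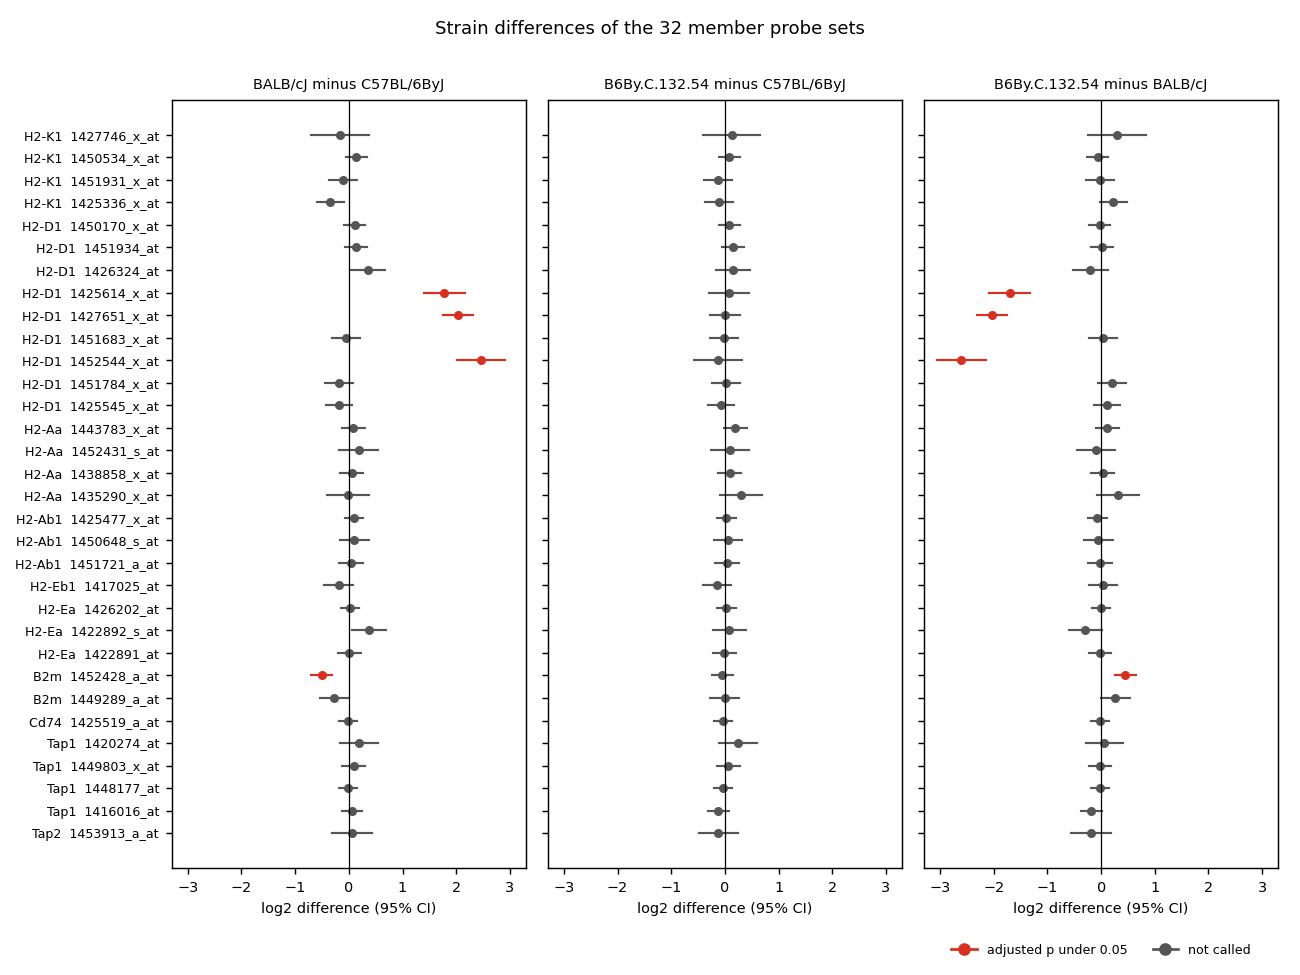
Log2 difference (x axis) of each of the 32 member probe sets (rows) in the 3 strain pairs (panels), with 95% confidence intervals from limma. Red marks an adjusted p under 0.05: H2-D1 1425614_x_at, 1427651_x_at and 1452544_x_at and B2m 1452428_a_at stand off 0 on the left and right, and no probe set does so in the middle panel.

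After each strain's mean was taken off, the 3 arrays numbered 1 correlated with each other at 0.519 to 0.542 over all probe sets. Same-numbered arrays of numbers 2 or 3 correlated at 0.147 to 0.266, so the 3 arrays numbered 1 stood apart together. Results that rest on them are also given without them, an alternative added after the data were seen. In bulk tissue such as this, fewer cells of a type and less RNA per cell cannot be told apart.

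H2-D1 codes for the D heavy chain, and 9 probe sets were annotated to it. Probe set 1452544_x_at read 3.89, 3.49 and 3.26 on the B6By.C.132.54 arrays, 5.81, 6.43 and 6.21 on the BALB/cJ arrays, and 3.95, 3.75 and 3.35 on the C57BL/6ByJ arrays. Every BALB/cJ array was far above all 6 others, and B6By.C.132.54 and C57BL/6ByJ overlapped. The difference of BALB/cJ minus C57BL/6ByJ was 2.47 ± 0.203 (SE; limma adjusted p = 7.23e-05), and that of B6By.C.132.54 minus BALB/cJ was -2.60 (limma adjusted p = 5.27e-05). B6By.C.132.54 minus C57BL/6ByJ was -0.14 (95% interval -0.58 to 0.31).

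Probe set 1427651_x_at of H2-D1 read 2.90, 3.00 and 2.67 in B6By.C.132.54, 4.66, 4.97 and 5.03 in BALB/cJ, against 2.87, 3.02 and 2.68 in C57BL/6ByJ. The pattern was the same, with the BALB/cJ arrays apart from the 6 others and the remaining strains overlapping. BALB/cJ minus C57BL/6ByJ was 2.03 ± 0.13 (SE; limma adjusted p = 1.04e-05) and B6By.C.132.54 minus BALB/cJ was -2.03 (limma adjusted p = 1.09e-05). Between B6By.C.132.54 and C57BL/6ByJ the 95% interval ran from -0.29 to 0.29. Probe set 1425614_x_at read 2.71, 2.82 and 3.02 in B6By.C.132.54, 4.63, 4.93 and 4.11 in BALB/cJ, against 2.82, 2.74 and 2.78 in C57BL/6ByJ. Its BALB/cJ arrays were again all above the others but spread more widely. BALB/cJ minus C57BL/6ByJ was 1.78 ± 0.171 (SE; limma adjusted p = 0.000223), B6By.C.132.54 minus BALB/cJ was -1.71 (limma adjusted p = 0.00034), and B6By.C.132.54 minus C57BL/6ByJ was 0.07 (95% interval -0.31 to 0.45). The size of these differences depended on the pseudocount. With a pseudocount of 16, BALB/cJ minus C57BL/6ByJ was 1.59 in 1452544_x_at, 0.97 in 1427651_x_at and 0.80 in 1425614_x_at, and B6By.C.132.54 minus BALB/cJ was -1.65, -0.97 and -0.78 in the same order, with limma adjusted p from 0.000285 to 0.0127.

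These H2-D1 readings in B6By.C.132.54 and C57BL/6ByJ had strain means of 2.78 to 3.68, below 3.97, the median over all probe sets of their mean on the 9 arrays, so no fold is given for them. The BALB/cJ means of 4.56, 4.89 and 6.15 were above that median. Without the 3 arrays numbered 1 the BALB/cJ minus C57BL/6ByJ differences of these H2-D1 probe sets were 1.76, 2.15 and 2.77, with limma adjusted p of 0.0217, 0.00118 and 0.000375.

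The other 6 H2-D1 probe sets did not show this. The brightest was 1425545_x_at, which read 7.35, 7.49 and 7.19 in B6By.C.132.54, 7.22, 7.28 and 7.22 in BALB/cJ, against 7.32, 7.63 and 7.31 in C57BL/6ByJ. Its BALB/cJ arrays were all below those of C57BL/6ByJ, by 0.18 on the log2 scale on average, with an interval that includes 0 (difference -0.18, 95% interval -0.42 to 0.06, limma adjusted p = 0.835). Probe set 1451784_x_at averaged 7.18 ± 0.21 in B6By.C.132.54, 6.98 ± 0.146 in BALB/cJ, against 7.15 ± 0.0856 in C57BL/6ByJ (SD, n = 3 each), with overlapping arrays (BALB/cJ minus C57BL/6ByJ -0.18, 95% interval -0.44 to 0.09). The 2 bright probe sets of H2-D1 thus ran in the opposite direction from the 3 called, without passing the test. The interval of each ends at or below 0.09 and so leaves out a rise in BALB/cJ of the size the 3 called probe sets gave.

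The dim H2-D1 probe sets 1450170_x_at, 1451934_at, 1426324_at and 1451683_x_at had means over the 9 arrays of 2.48 to 3.54. Of these, 1426324_at gave the largest BALB/cJ minus C57BL/6ByJ difference, 0.35 ± 0.147 (SE), with overlapping arrays and a limma adjusted p of 0.588. All 6 uncalled H2-D1 probe sets lay between -0.18 and 0.35 in BALB/cJ minus C57BL/6ByJ, between -0.08 and 0.15 in B6By.C.132.54 minus C57BL/6ByJ, and between -0.20 and 0.20 in B6By.C.132.54 minus BALB/cJ.

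**Figure D2:**
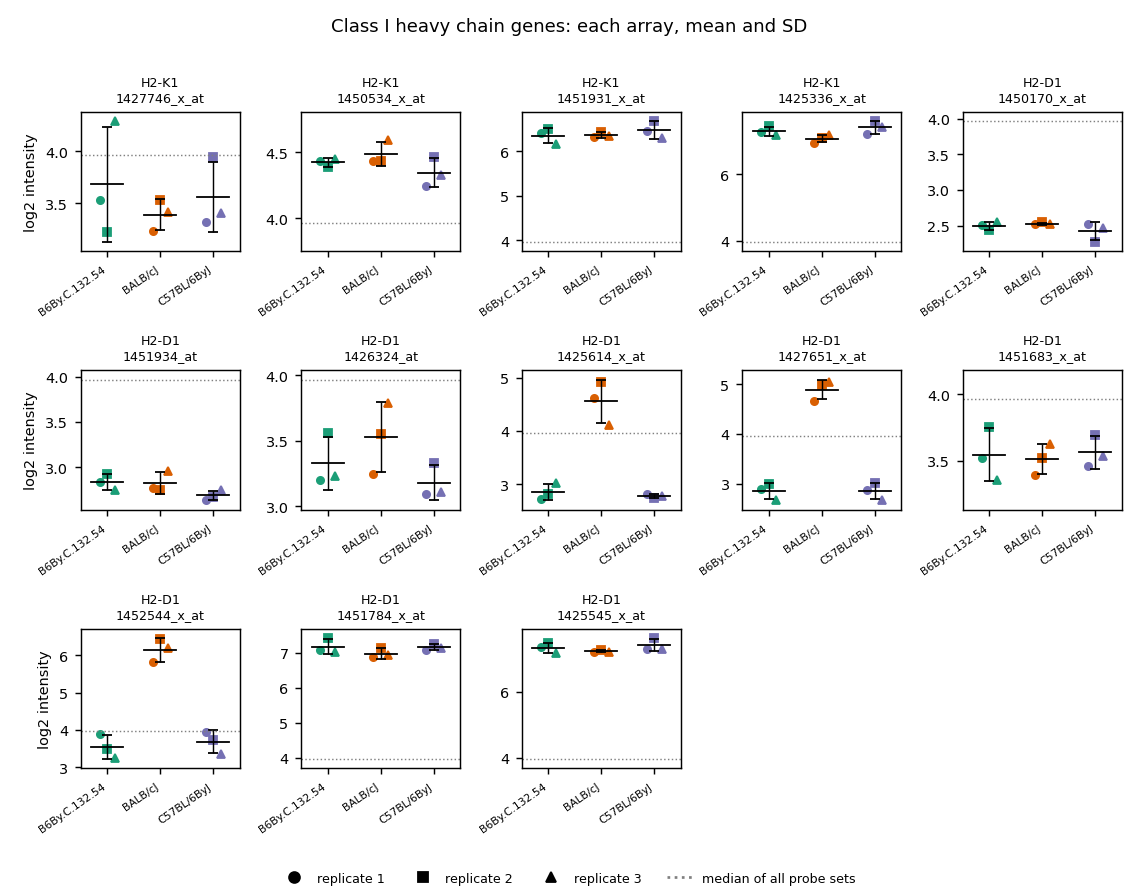
Log2 intensity (y axis, scaled per panel) of the 4 H2-K1 and 9 H2-D1 probe sets on each of the 9 arrays, with strain mean and SD (bars) and the median of all probe sets (dotted, 3.97). In 1425614_x_at, 1427651_x_at and 1452544_x_at the 3 BALB/cJ arrays lie above the 6 others, whereas in 1451784_x_at and 1425545_x_at the strains lie within 6.87 to 7.63.

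H2-K1 codes for the K heavy chain and had 4 probe sets, none of them called. The brightest, 1425336_x_at, read 7.29, 7.45 and 7.19 in B6By.C.132.54, 6.96, 7.10 and 7.18 in BALB/cJ, against 7.22, 7.60 and 7.45 in C57BL/6ByJ. Its BALB/cJ arrays were below all 6 others, by a small margin. BALB/cJ minus C57BL/6ByJ was -0.34 ± 0.116 (SE), with a limma adjusted p of 0.369, and B6By.C.132.54 minus BALB/cJ was 0.23 (95% interval -0.03 to 0.48). Probe set 1451931_x_at of H2-K1 averaged 6.35 ± 0.174 in B6By.C.132.54, 6.37 ± 0.0658 in BALB/cJ, against 6.48 ± 0.191 in C57BL/6ByJ (SD, n = 3 each), with overlap among all strains. The dimmer 1450534_x_at and 1427746_x_at gave BALB/cJ minus C57BL/6ByJ differences of 0.14 (95% interval -0.05 to 0.34) and -0.17 (95% interval -0.71 to 0.37), and the wide interval of the second goes with an SD of 0.552 in B6By.C.132.54.

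The class I probe sets share probes with other transcripts. On this array the suffixes _x, _s and _a mark probe sets whose probes match more than 1 transcript, and 11 of the 13 class I probe sets carry _x, the 3 called among them. Over the 32 members, 24 carry one of these suffixes, 16 of them _x, and 8 do not. The suffixes were pooled, so transcripts of the same gene and of other genes are not told apart. Both B2m probe sets carry _a and are among the 24. Among the 8 without a suffix, 0 were called in any strain pair, and 1 (1426324_at) had an unadjusted p under 0.05, in BALB/cJ minus C57BL/6ByJ. Which of the related class I genes an _x probe set reads, and how far its probes match the BALB/cJ allele, was not tested, since no probe sequences were used here. No single-gene probe set was annotated to H2-L, and the gene is not analysed here. Of the probe sets annotated to several genes, 1424948_x_at (H2-K1 and H2-D1) had all BALB/cJ arrays below those of both other strains, at a dim level. BALB/cJ minus C57BL/6ByJ was -0.19 (limma unadjusted p = 0.0485, adjusted p = 0.652). B6By.C.132.54 minus BALB/cJ was 0.30 (limma unadjusted p = 0.00506, adjusted p = 0.212), and B6By.C.132.54 minus C57BL/6ByJ was 0.11 (limma adjusted p = 0.915). None of these passed. Probe set 1451593_at (H2-Q5 and H2-K1) read 4.31, 4.53 and 4.64 in B6By.C.132.54, 4.52, 4.98 and 4.77 in BALB/cJ, against 4.29, 4.25 and 4.42 in C57BL/6ByJ. Its BALB/cJ arrays were all above those of C57BL/6ByJ, a difference of 0.44 ± 0.127 (SE) that did not pass (limma adjusted p = 0.223). The third, 1422348_at (Gm38417, H2-Q2 and H2-D1), read 3.23, 2.99 and 2.88 in B6By.C.132.54, 2.78, 2.81 and 2.74 in BALB/cJ, against 2.83, 2.77 and 2.64 in C57BL/6ByJ. Its B6By.C.132.54 arrays were all above those of both other strains, at a dim level. The differences were 0.28 in B6By.C.132.54 minus C57BL/6ByJ (limma unadjusted p = 0.0174, adjusted p = 0.915), 0.26 in B6By.C.132.54 minus BALB/cJ (limma unadjusted p = 0.0289, adjusted p = 0.544) and 0.03 in BALB/cJ minus C57BL/6ByJ (limma adjusted p = 0.993), and none passed.

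No class II probe set was called in any strain pair, and 8 of the 11 had a mean below the median of all probe sets. In BALB/cJ minus C57BL/6ByJ 1 of them had an unadjusted p under 0.05, and in the other pairs 0 did. H2-Ea, the E alpha chain gene that RefSeq lists as a transcribed pseudogene in the reference genome, had 3 probe sets. The brightest, 1422891_at, read 5.08, 4.93 and 5.22 in B6By.C.132.54, 5.09, 5.20 and 5.0 in BALB/cJ, against 5.09 on all 3 arrays of C57BL/6ByJ. The strains overlapped and stood level. The b haplotype of C57BL/6 strains is given above with a defect that stops H2-Ea transcription, yet C57BL/6ByJ read level with BALB/cJ. Whether 1422891_at reads H2-Ea RNA in any strain was not tested. BALB/cJ minus C57BL/6ByJ was 0.01 (95% interval -0.20 to 0.22, limma adjusted p = 0.997). B6By.C.132.54 minus C57BL/6ByJ was -0.01 (95% interval -0.22 to 0.20) and B6By.C.132.54 minus BALB/cJ was -0.02 (95% interval -0.23 to 0.19).

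Probe set 1422892_s_at of H2-Ea read 2.75, 2.82 and 3.14 in B6By.C.132.54, 2.93, 3.28 and 3.38 in BALB/cJ, against 2.93, 2.88 and 2.66 in C57BL/6ByJ. BALB/cJ held the highest arrays, but its lowest met the highest of C57BL/6ByJ. The difference was 0.37 ± 0.142 (SE) with a limma adjusted p of 0.477, at a level well below the median of all probe sets. The third H2-Ea probe set, 1426202_at, lay between 2.43 and 2.58 on all 9 arrays, with a BALB/cJ minus C57BL/6ByJ difference of 0.03 (95% interval -0.15 to 0.20).

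H2-Aa and H2-Ab1 code for the alpha and beta chains of the A molecule. The brightest H2-Aa probe set, 1435290_x_at, read 4.11, 4.11 and 4.88 in B6By.C.132.54, 3.98, 4.11 and 4.07 in BALB/cJ, against 3.98, 4.11 and 4.11 in C57BL/6ByJ. A single B6By.C.132.54 array, that numbered 3, stood above the rest, and the strains otherwise overlapped. B6By.C.132.54 minus C57BL/6ByJ was 0.30 (95% interval -0.09 to 0.69) and BALB/cJ minus C57BL/6ByJ was -0.01 (95% interval -0.40 to 0.37). The other 3 H2-Aa probe sets, with means of 2.21 to 3.96, differed by 0.06 to 0.18 in BALB/cJ minus C57BL/6ByJ.

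H2-Ab1 read 4.02, 3.84 and 4.19 in B6By.C.132.54, 3.94, 4.05 and 4.10 in BALB/cJ, against 3.91, 4.02 and 4.02 in C57BL/6ByJ with its brightest probe set, 1451721_a_at. These arrays overlapped, and BALB/cJ minus C57BL/6ByJ was 0.05 (95% interval -0.18 to 0.27). The dimmer H2-Ab1 probe sets 1425477_x_at and 1450648_s_at had all 3 BALB/cJ arrays above all 3 of C57BL/6ByJ, by mean differences of 0.10 in both, with limma adjusted p of 0.91 and 0.962. H2-Eb1, the E beta chain gene, had 1 probe set, 1417025_at, which read 3.90, 3.63 and 3.53 in B6By.C.132.54, 3.55, 3.56 and 3.83 in BALB/cJ, against 3.96, 3.82 and 3.74 in C57BL/6ByJ. C57BL/6ByJ held the highest array, but every strain overlapped the others. Its BALB/cJ minus C57BL/6ByJ difference was -0.19 (95% interval -0.46 to 0.07).

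**Figure D3:**
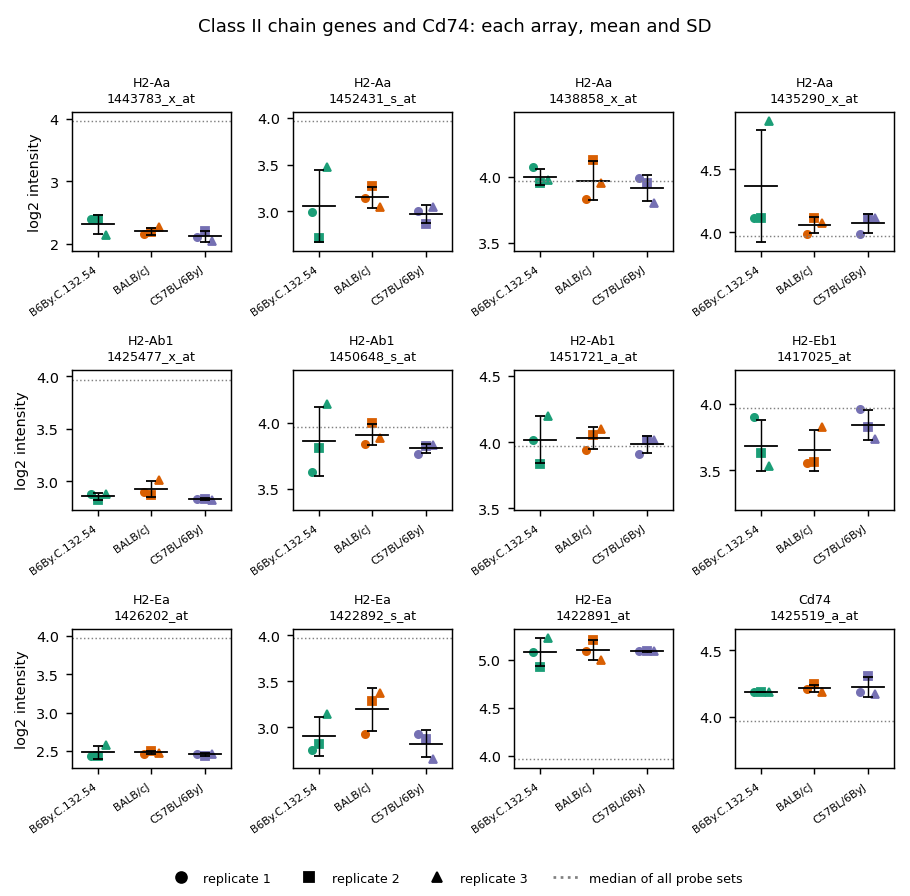
Log2 intensity (y axis, scaled per panel) of the 11 class II probe sets and of Cd74 on each of the 9 arrays, with strain mean and SD (bars) and the median of all probe sets (dotted, 3.97). Most panels lie at or under the dotted line, and the strains overlap in all but 2 dim H2-Ab1 probe sets, where BALB/cJ lies above C57BL/6ByJ.

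B2m, the light chain of every class I molecule, lies outside the H2 region on chromosome 2 and was the brightest member. Probe set 1452428_a_at read 8.46, 8.51 and 8.33 in B6By.C.132.54, 7.87, 7.95 and 8.11 in BALB/cJ, against 8.48, 8.47 and 8.51 in C57BL/6ByJ. All BALB/cJ arrays were below all 6 others, and B6By.C.132.54 overlapped C57BL/6ByJ. B2m fell by 0.51 ± 0.0898 (SE) on the log2 scale in BALB/cJ against C57BL/6ByJ, which is 1.42-fold (limma adjusted p = 0.0165). B6By.C.132.54 was 1.37-fold above BALB/cJ, a log2 difference of 0.45 (limma adjusted p = 0.0347). B6By.C.132.54 minus C57BL/6ByJ was -0.05 (95% interval -0.25 to 0.15).

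The other B2m probe set, 1449289_a_at, read 8.58, 8.75 and 8.35 in B6By.C.132.54, 8.48, 8.15 and 8.26 in BALB/cJ, against 8.68, 8.50 and 8.52 in C57BL/6ByJ. Its BALB/cJ arrays were again all below those of C57BL/6ByJ, narrowly, but overlapped B6By.C.132.54. The difference of -0.27 ± 0.123 (SE) did not pass (limma adjusted p = 0.663). The call on 1452428_a_at of B2m rests on few arrays. In BALB/cJ minus C57BL/6ByJ it was lost without any 1 of the C57BL/6ByJ arrays (limma adjusted p of 0.0682, 0.074 and 0.0822 without replicates 1, 2 and 3) and without BALB/cJ replicate 1 or 2 (0.0808 and 0.0843), and without the 3 arrays numbered 1 the difference was -0.46 with a limma adjusted p of 0.312.

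Cell type markers were read beside the B2m difference. Over all probe sets, 1.43% were called in BALB/cJ minus C57BL/6ByJ and 7.58% had an unadjusted p under 0.05. In the endothelial list, Cldn5, a tight junction gene, fell by 0.54 in BALB/cJ against C57BL/6ByJ (limma adjusted p = 0.0466), 1 of 10 probe sets of 6 genes. Leaving out any 1 BALB/cJ or C57BL/6ByJ array ended the call (limma adjusted p from 0.0596 to 0.213), as did leaving out B6By.C.132.54 replicate 2 or 3 (0.0511 and 0.0583) or the 3 arrays numbered 1 (0.231). The summed intensity of the 6 endothelial genes, each by its brightest probe set, was 532.9 to 627.4 in B6By.C.132.54, 494.9 to 548.6 in BALB/cJ, against 600.5 to 616.6 in C57BL/6ByJ, and no endothelial gene was below the median of all probe sets. BALB/cJ lay below C57BL/6ByJ in this sum, but the list did not move as one: the median difference of its 10 probe sets was -0.07, they ran from -0.54 (Cldn5) to 0.23, and 1 other probe set lay wholly higher in BALB/cJ without passing the test. The part of endothelium in the B2m result was not tested. Among microglia markers 0 of 14 probe sets of 9 genes were called (0 at an unadjusted p under 0.05), the sums were 749.2 to 842.5 in B6By.C.132.54, 795.3 to 896.5 in BALB/cJ, against 791.3 to 918.0 in C57BL/6ByJ, and Itgam and Ptprc were below the median. The border macrophage list was below the median in all 5 of its genes, and so were all 3 measured B cell genes. Neither list had a probe set called in that pair, and 0 probe sets of either had an unadjusted p under 0.05. The dendritic cell, T cell and blood lists (8, 10 and 2 probe sets) held no called probe set in that pair either, and 0 with an unadjusted p under 0.05. Of the neuronal list, 1 of 14 probe sets was called, Slc17a7, lower in BALB/cJ, and the sums were 5967 to 7056 in B6By.C.132.54, 6406 to 7548 in BALB/cJ, against 6914 to 7863 in C57BL/6ByJ. Of the astrocyte list, 4 of 19 were called, 3 of Gfap and 1 of Slc1a2, all higher in BALB/cJ, and the sums were 5602 to 6413 in B6By.C.132.54, 5657 to 5978 in BALB/cJ, against 6142 to 6241 in C57BL/6ByJ. BALB/cJ thus lay below C57BL/6ByJ in the astrocyte sum, and this list did not move as one either. Its probe sets ran from -0.33 to 1.80 with a median of -0.03, and 2 lay wholly lower in BALB/cJ. By its brightest probe set, 1 of the 5 genes was called. The part of these cells in the B2m and H2-D1 results was not tested. As a check of the tissue label, neuronal and oligodendrocyte markers were present, with 13 of 14 and 14 of 15 probe sets at or above the median.

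Tap1 and Tap2, the subunits of the peptide transporter, were not called. The brightest Tap1 probe set, 1416016_at, read 3.14, 3.27 and 3.00 in B6By.C.132.54, 3.36, 3.34 and 3.26 in BALB/cJ, against 3.26 on all 3 arrays of C57BL/6ByJ. The arrays overlapped or met, and all were dimmer than the median probe set. BALB/cJ minus C57BL/6ByJ was 0.06 (95% interval -0.14 to 0.25), and the other 3 Tap1 probe sets, with means of 2.67 to 3.18 over the 9 arrays, differed by -0.01 to 0.18. Tap2 read 4.33, 4.73 and 4.36 in B6By.C.132.54, 4.64, 4.93 and 4.40 in BALB/cJ, against 4.51, 4.88 and 4.40 in C57BL/6ByJ. Its arrays numbered 2 were the highest in every strain, and BALB/cJ minus C57BL/6ByJ was 0.06 (95% interval -0.31 to 0.43). Cd74, with 1425519_a_at, lay between 4.17 and 4.31 on all 9 arrays, and its BALB/cJ minus C57BL/6ByJ difference was -0.01 (95% interval -0.18 to 0.16).

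**Figure D4:**
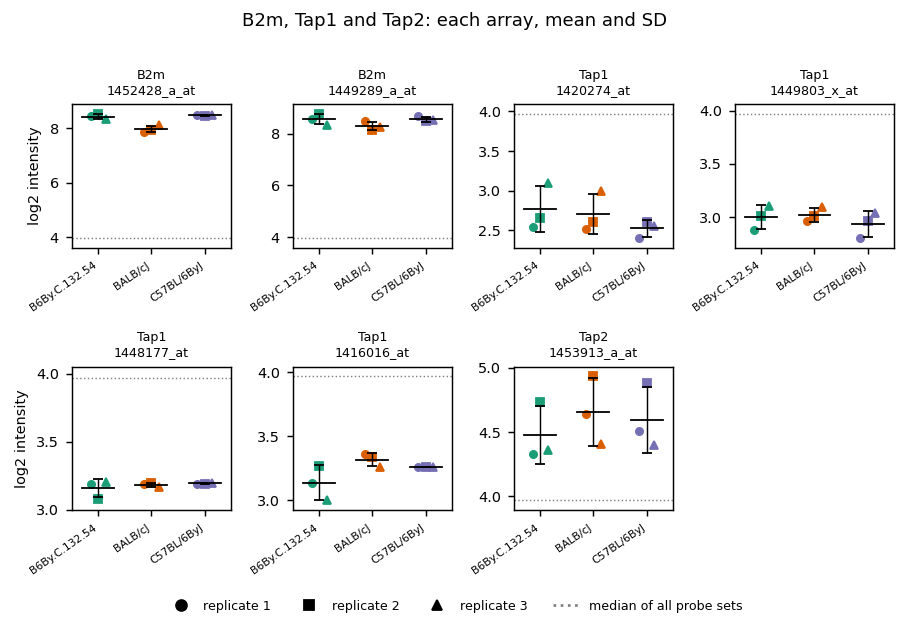
Log2 intensity (y axis, scaled per panel) of the B2m, Tap1 and Tap2 probe sets on each of the 9 arrays, with strain mean and SD (bars) and the median of all probe sets (dotted, 3.97). In B2m 1452428_a_at the 3 BALB/cJ arrays lie at 7.87 to 8.11, below the 6 others, and the Tap1 probe sets lie under the dotted line.

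The polymorphic genes can be set beside B2m and the Tap genes by counts and medians. Of the 24 class I and II probe sets, 3 were called in BALB/cJ minus C57BL/6ByJ, 0 in B6By.C.132.54 minus C57BL/6ByJ and 3 in B6By.C.132.54 minus BALB/cJ. Of the 7 of B2m, Tap1 and Tap2, 1, 0 and 1 were called. Over all probe sets, 1.43%, 0.0% and 1.28% were called in the same order of pairs. A difference between the groups in the share called was not tested. In BALB/cJ minus C57BL/6ByJ the median absolute log2 difference was 0.14 in the polymorphic genes, 0.09 in B2m and the Tap genes, and 0.08 over all probe sets. The order was the other way in B6By.C.132.54 minus BALB/cJ. There it was 0.08 in the polymorphic genes, 0.18 in B2m and the Tap genes, and 0.09 over all probe sets. Set apart after their values were seen, the 21 class I and II probe sets other than the 3 called H2-D1 probe sets lay between -0.34 and 0.37 in BALB/cJ minus C57BL/6ByJ. Their lowest limma adjusted p in that pair was 0.369. All polymorphic probe sets past the threshold in that pair were thus of H2-D1. In B6By.C.132.54 minus C57BL/6ByJ the median absolute difference of all 32 members was 0.08, against 0.09 over all probe sets.

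Counting arrays that do not overlap gave a similar picture. In BALB/cJ minus C57BL/6ByJ 9 of the 32 members had all 3 BALB/cJ arrays on 1 side of all 3 C57BL/6ByJ arrays, against 12.6% of all probe sets. Of these members 5 were higher (6.65% of all probe sets) and 4 were lower (5.95% of all). The 5 higher were the 3 called H2-D1 probe sets and 2 of H2-Ab1, and the 4 lower were both of B2m, 1425336_x_at of H2-K1 and 1425545_x_at of H2-D1. In B6By.C.132.54 minus C57BL/6ByJ 0 members did not overlap, against 6.62% of all (3.08% higher, 3.54% lower). In B6By.C.132.54 minus BALB/cJ 5 members did not overlap, against 9.51% of all: 2 higher (3.8% of all) and 3 lower (5.72% of all).

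The genes around the members were read in the RefSeq gene order of chromosome 17, in which H2-K1 to H2-D1 spans 122 genes. There were 127 probe sets of 74 of these genes, 98 of them of 66 genes that are no members. None of the 98 was called in any strain pair, with 9 at an unadjusted p under 0.05 in BALB/cJ minus C57BL/6ByJ, 3 in B6By.C.132.54 minus C57BL/6ByJ and 12 in B6By.C.132.54 minus BALB/cJ. Over all probe sets, 1.43%, 0.0% and 1.28% were called in the same order of pairs. An unadjusted p under 0.05 was found in 7.58%, 3.89% and 7.5% of all. The lowest p among the 98 in BALB/cJ minus C57BL/6ByJ was that of a probe set of Abhd16a, a lipid hydrolase. Its difference was -0.49 ± 0.111 (SE; limma adjusted p = 0.0682). A brighter Abhd16a probe set (mean 8.26 against 7.29) went the other way, at 0.10 (limma adjusted p = 0.966). In B6By.C.132.54 minus C57BL/6ByJ the lowest p was that of a probe set of Pbx2, a homeodomain transcription factor, at -0.39 (limma adjusted p = 0.915). The same probe set had the lowest p in B6By.C.132.54 minus BALB/cJ, at -0.42 (limma adjusted p = 0.0809). The brightest Pbx2 probe set (mean 6.26 against 4.01) differed by 0.02 and 0.12 in these pairs, and the remaining one by -0.002 and -0.27.

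**Figure D5:**
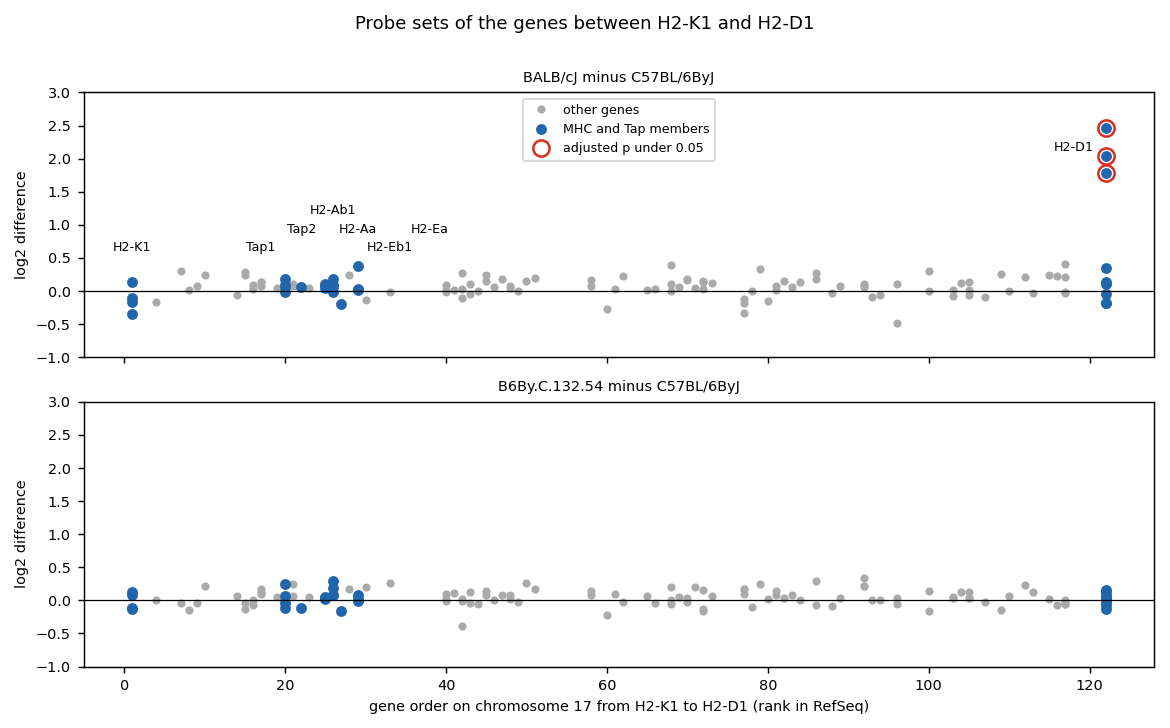
Log2 difference (y axis) of the 127 probe sets between H2-K1 and H2-D1 against gene order on chromosome 17 (x axis, rank in RefSeq), for BALB/cJ minus C57BL/6ByJ (top) and B6By.C.132.54 minus C57BL/6ByJ (bottom). The 3 circled H2-D1 probe sets at the right end of the top panel reach 1.78 to 2.47, and in the bottom panel all points lie between -0.39 and 0.33.

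Other genes of the pathway were read by lists. Over all probe sets, the shares called in BALB/cJ minus C57BL/6ByJ, B6By.C.132.54 minus C57BL/6ByJ and B6By.C.132.54 minus BALB/cJ were 1.43%, 0.0% and 1.28%. In the peptide loading and proteasome list, 1 of 19 probe sets of 10 genes was called: Pdia3, the thiol oxidoreductase of the class I loading complex, with 1445330_at. It read 5.83, 5.81 and 6.02 in B6By.C.132.54, 5.45, 5.23 and 5.18 in BALB/cJ, against 6.07, 5.89 and 5.70 in C57BL/6ByJ. The BALB/cJ arrays were below all others, as in B2m. Pdia3 fell by 0.60 ± 0.117 (SE) on this probe set in BALB/cJ against C57BL/6ByJ (limma adjusted p = 0.029), and B6By.C.132.54 minus BALB/cJ was 0.60 (limma adjusted p = 0.0326). The Pdia3 call in the first pair was lost without C57BL/6ByJ replicate 1 or 2 (0.131 and 0.124), without BALB/cJ replicate 2 or 3 (0.142 and 0.144) and without the 3 arrays numbered 1 (0.16). In the second pair it was lost without C57BL/6ByJ replicate 2 (0.0664), without BALB/cJ replicate 2 or 3 (0.159 and 0.16), without any 1 of the B6By.C.132.54 arrays (0.0775, 0.066 and 0.118) and without the 3 arrays numbered 1 (0.0827). The brighter Pdia3 probe set 1423423_at was not called in any strain pair.

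The remaining pathway lists held no called probe set in any strain pair. Over all probe sets, the shares with an unadjusted p under 0.05 were 7.58%, 3.89% and 7.5% in the order of pairs given next. Among other class I heavy chains (20 probe sets of 15 genes) 2, 2 and 1 probe sets had an unadjusted p under 0.05 in BALB/cJ minus C57BL/6ByJ, B6By.C.132.54 minus C57BL/6ByJ and B6By.C.132.54 minus BALB/cJ, and in both pairs with BALB/cJ the lowest p was that of H2-T24, a non-classical class I gene. H2-T24 differed by -0.82 in BALB/cJ minus C57BL/6ByJ (limma adjusted p = 0.09) and by 0.87 in B6By.C.132.54 minus BALB/cJ (limma adjusted p = 0.0724), at a level below the median of all probe sets. H2-T24 passed in 1 of 15 alternatives in each of these pairs, that without BALB/cJ replicate 3 (limma adjusted p = 0.022 and 0.0184). In the others the limma adjusted p ran up to 0.681 and 0.433. Among other class II genes (8 probe sets of 5 genes), 0 had an unadjusted p under 0.05 in any pair. The class II pathway proteases (5 probe sets of 4 genes) held 1, 0 and 2 with an unadjusted p under 0.05 in the same order of pairs. The regulators of MHC genes (33 probe sets of 15 genes) held 0, 0 and 2, and Ciita, the master activator of class II genes, and Nlrc5, that of class I genes, were below the median of all probe sets.

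Likeness of pattern was measured by Pearson's r over the 9 arrays, among genes at or above the median level, for the brightest probe set of 3 members. It is a description of 9 arrays that share strains and array numbers. Closest to 1425545_x_at of H2-D1 were Ankrd34a (0.977), Csrp1 (0.967) and Trafd1 (0.963). Closest to 1449289_a_at of B2m were Naa35 (0.951), Mbnl1 (0.949) and Ecrg4 (0.939). Closest to 1422891_at of H2-Ea, whose reading was not tested as H2-Ea RNA, were Slc22a26 (0.932), Aspdh (0.918) and Hsd3b7 (0.914). No other H2 gene and no B2m was among these 9. Of the 24 class I and II probe sets, 15 were below the median level and could not appear. The H2-D1 and B2m probe sets used here were not those called, so this says nothing of the called patterns.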

How the data were processed

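The deposited table gives an intensity, not on a log scale, for each probe set of each array; GCOS and RMA are named per the submitters' processing notes, without versions or order, and how background was treated is not given in the sources used here. No pseudocount and no further normalization were used before log2. Of 45101 probe sets, 64 controls were left out. By the platform annotation 34945 of the rest had 1 gene, 932 had several and 9160 had none; symbols were updated through RefSeq GRCm38.p6, which held 34741. The median intensity per array was 15.49 to 15.99. Of the 32 members, 18 had exactly the same value on at least 2 arrays, against 61.55% of all probe sets.

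Strain means were fitted to all 9 arrays with limma 3.58.1 in R 4.3.3 (residual df 6) and compared by its moderated two-sided test with Benjamini-Hochberg adjustment over 45037 probe sets. The script was tested on simulated data. The design text names 3 batches with every strain in each, but no label ties an array number to a batch. After strain means were removed, same-numbered arrays correlated at 0.147 to 0.542 in all 9 pairs, and differently numbered ones at -0.458 to 0.153 in 18 pairs. Deviations from a strain mean sum to 0, so these ranges are not independent. The highest values were those of the arrays numbered 1. Among arrays numbered 2 or 3, same-numbered pairs gave 0.147 to 0.266 and differently numbered ones -0.00664 to 0.153, so their pairing was weak. A fit with the number as a block was run as an alternative.

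The text names all member genes and most of their probe sets, with the rest given by gene. It also names the called genes of the pathway and marker lists, the lowest-p genes of the region, and the 3 closest genes in pattern. Of the lists without a call, the lowest-p gene is named only for the other class I heavy chains, in the pairs with BALB/cJ. Members and lists were chosen with earlier results of these data known. Alternatives were the block, a pseudocount of 16, quantile normalization, a filter at the median level, only the 6 arrays of a pair, an intensity trend in the variance, leaving out each array, and leaving out probe sets with shared probes.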

Additional observations from a re-analysis of the deposited data

How the results depend on the processing

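The 3 H2-D1 calls held in BALB/cJ minus C57BL/6ByJ and in B6By.C.132.54 minus BALB/cJ under every alternative run on them other than the filter on low values, with differences of 0.80 to 2.77 in the first pair, the lowest with a pseudocount of 16. That filter removed 1425614_x_at and 1427651_x_at, and 1452544_x_at passed it only through its BALB/cJ level, so it says nothing of these calls. The B2m call on 1452428_a_at held in 10 of 16 alternatives for BALB/cJ minus C57BL/6ByJ (differences -0.57 to -0.45, limma adjusted p from 0.0101 to 0.312) and in 7 of 16 for B6By.C.132.54 minus BALB/cJ (0.39 to 0.52, adjusted p from 0.00675 to 0.498). For the second pair it was lost with only the 6 arrays of the pair (0.134), without any 1 of the C57BL/6ByJ arrays (0.0642, 0.0692 and 0.0647), without BALB/cJ replicate 1 or 2 (0.153 and 0.152), without B6By.C.132.54 replicate 1 or 2 (0.122 and 0.114) and without the 3 arrays numbered 1 (0.498). Of 1479 values over the 96 member differences, 15 lost a call, all of B2m, 0 gained one and 0 reversed a called direction; 84 changed sign with neither value past the threshold. Pdia3 (1445330_at) and Cldn5 were called in 8 and 5 of 16 alternatives for BALB/cJ minus C57BL/6ByJ; with a pseudocount of 16 both missed the threshold (adjusted p = 0.0611 and 0.0696), and with only the 6 arrays of the pair too (0.057 and 0.0563). Quantile normalization ended the Pdia3 call in that pair (0.0815) and kept that of Cldn5.

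The number of members called fell to 2, against 4, in BALB/cJ minus C57BL/6ByJ and in B6By.C.132.54 minus BALB/cJ with the filter on low values. That filter left 13 members tested, and its choice of H2-D1 probe sets was set by the strain difference itself. Without probe sets with shared probes 8 members were left, none of them of B2m, and 0 were called in both pairs. That setting removed all 4 called probe sets, those of H2-D1 included, so its count was fixed in advance and says nothing of these calls. Leaving out 1 array gave 3 to 4 members called in both pairs. Over all probe sets, leaving out 1 array gave 410 (without C57BL/6ByJ replicate 2) to 706 calls in BALB/cJ minus C57BL/6ByJ and 391 to 514 in B6By.C.132.54 minus BALB/cJ. Without the 3 arrays numbered 1, chosen after seeing the data, these counts were 309 and 276. Some of these fits have fewer arrays; other causes were not tested. With the array number as a replicate block, BALB/cJ minus C57BL/6ByJ had 953 calls, B6By.C.132.54 minus BALB/cJ 834 and B6By.C.132.54 minus C57BL/6ByJ 0, and the block changed no call of a member (B2m adjusted p = 0.0173 and 0.0342). B6By.C.132.54 minus C57BL/6ByJ had 0 calls in every setting (limma). The dim level of most members, 19 of 32 below the median of all probe sets, limits what differences could be seen, and shared probes limit which gene is read.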
